A study of Mus musculus with 11 samples.

Results

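The comparison set the microRNA (miRNA) profile of cardiac Ly6clow/CX3CR1high macrophages taken 30 days after myocardial injury against that of the same sorted phenotype taken at day 7. It used the 6 arrays whose titles give this phenotype and either time, 3 at day 7 and 3 at day 30, of 11 arrays in all. The remaining 5 arrays were 2 of Ly6clow/CX3CR1high cells from uninjured hearts (day 0) and 3 of Ly6chigh/CX3CR1low cells at day 3, and they entered the scaling, the floor on low signals, the filter on detection, the estimate of the spread and a side by side reading of levels. All animals were Cx3cr1GFP/+ mice, which carry 1 copy of green fluorescent protein at the Cx3cr1 locus, and all were 2-3 months old. The injury in both groups was a cryoinjury of the heart, a freeze lesion used as a model of infarction. The uninjured animals had no surgery, so no group shows what surgery without a lesion does at either time. Each array took 100 ng of total RNA labelled with Cy3. The labels speak of independent biological replicates, and how many animals went into each was not given in the sources used here.

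A miRNA is a short RNA that pairs with messenger RNAs through its seed, the bases 2 to 8 from its 5′ end, and lowers their translation and stability. miRNAs that share a seed are treated as a family, since they can pair with the same sites, and a hairpin precursor can give a mature miRNA from either arm (5p and 3p). In the injured heart, Ly6Chigh monocytes and macrophages that clear dead tissue are followed by Ly6Clow cells linked to repair and scar formation. In macrophages, miR-155 and miR-146a are known as responders to Toll-like receptor signalling, miR-223 and miR-142 as abundant myeloid and pan-haematopoietic miRNAs, and miR-511, hosted by the mannose receptor gene Mrc1, as a marker of alternative activation.

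Each array was scaled to an upper percentile of the miRNAs that every array detected. On that scale the median log2 change over all 369 tested was −0.68, so higher and lower are not relative to the bulk of miRNAs. Members of the miR-29, miR-15/16, miR-30, miR-19, miR-26 and miR-101 families were higher at day 30 than at day 7. So were the haematopoietic miR-142a arms and miR-511-3p. The rise of miR-29b-3p was 3.95 on the log2 scale (SE 0.59, n = 3 and n = 2). Lower were miR-494-3p, miR-1949, miR-6360 and many miRNAs of late registry numbers, miR-494-3p by −4.49 (SE 0.54). In let-7 1 of 9 tested members passed, beside 47.7% of all 369 tested. On the scaled signal neither miR-155-5p nor any tested miR-181 or miR-10 member passed. Most of the lower set was lower only after scaling. With array brightness as a covariate, 5 of the 50 higher miRNAs passed and 10 turned sign, and of the 126 lower 1 passed and 43 turned sign. Every day 30 array was brighter than every day 7 array, so this covariate cannot fully separate brightness from time.

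The following mature sequences carry the comparison. They come from RefSeq (GRCm38.p6), run 5′ to 3′, and have the seed in capitals. The first 8, grouped by seed, are from 3 families with several members that rose at day 30, and include miR-16-5p, which did not pass.
miR-29a-3p: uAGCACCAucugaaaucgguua
miR-29b-3p: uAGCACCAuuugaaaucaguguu
miR-29c-3p: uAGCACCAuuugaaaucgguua
miR-15a-5p: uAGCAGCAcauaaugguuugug
miR-195a-5p: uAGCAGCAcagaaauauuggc
miR-16-5p: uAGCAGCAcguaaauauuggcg
miR-19a-3p: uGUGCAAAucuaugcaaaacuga
miR-19b-3p: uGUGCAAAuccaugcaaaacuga
The next 6 were higher at day 30 and belong to other seeds; of these, miR-101a-3p, miR-101c and miR-340-5p were not detected on any day 7 array.
miR-30a-5p: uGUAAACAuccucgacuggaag
miR-26b-5p: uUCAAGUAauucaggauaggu
miR-142a-3p: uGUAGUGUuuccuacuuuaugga
miR-101a-3p: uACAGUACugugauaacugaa
miR-101c: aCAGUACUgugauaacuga
miR-340-5p: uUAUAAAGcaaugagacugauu
The last 3 show a seed shared by miRNAs that moved in opposite directions (miR-721 and miR-301a-3p) and a bright day 7 miRNA that was among the largest falls (miR-494-3p).
miR-721: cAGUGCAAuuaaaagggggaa
miR-301a-3p: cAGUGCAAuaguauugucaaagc
miR-494-3p: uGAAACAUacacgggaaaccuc

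The arrays of the day 30 group were brighter than those of the day 7 group, and this bears on every result that follows. The 75th percentile of signal was 323, 114 and 260 scanner units on day 7 replicates 1, 2 and 3. On the day 30 replicates it was 2304, 1453 and 1754 in the same order. The geometric mean of the control probes with names starting in dmr lay between 168 and 222 at day 7 and between 221 and 326 at day 30. Signals were therefore divided by the array's 75th percentile, taken over the 126 miRNAs that all 11 arrays detected, and the log2 of this ratio is called the log2 scaled signal; a difference of it between times is a log2 change. In bulk RNA such as this, fewer cells of a type and less RNA per cell cannot be told apart. Between day 30 replicates 2 and 3 the squared difference was 0.209 of that expected from the error the scanner reports (over 290 miRNAs, the median absolute gap was 0.06 on the log2 scale), against 2.74 to 43.1 for the other 9 pairs of arrays within a group, so they were averaged and counted as 1 sample. The day 30 group thus has n = 2 and the day 7 group n = 3. Both slides held both groups, with day 7 replicates 1 and 3 and day 30 replicate 1 on one, and day 7 replicate 2 and day 30 replicates 2 and 3 on the other.

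More miRNAs were detected at day 30. Day 7 replicates 1, 2 and 3 had 270, 208 and 246 detected miRNAs and the day 30 replicates had 340, 290 and 330. The means were 241 at day 7 and 325 at day 30 (difference 83.7, exact permutation test, two-sided p = 0.1, the smallest that the 10 splits of 5 samples allow, with day 30 replicates 2 and 3 averaged). Counted instead over the scaled signal that every array could measure, the order turned, with 183 at day 7 and 139 at day 30 (difference −44.3, exact permutation test, two-sided p = 0.1).

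Of 369 miRNAs tested, 176 passed (47.7%) with limma at a Benjamini-Hochberg adjusted p of 0.05, 50 higher at day 30 (13.6%) and 126 lower (34.1%). Among the 186 detected on all 6 arrays, 112 passed (60.2%), 27 higher (14.5%) and 85 lower (45.7%), and the median log2 change was −0.87. The values of 257 of the 369 did not overlap between the groups (69.6%). All 176 miRNAs that passed had no overlap between groups, which fixes their sign, so all 176 also had the same sign within each slide. Without day 30 replicate 1, which leaves 1 sample in that group and assumes it varies like the others, 110 passed (27 higher and 83 lower), and without day 7 replicate 3, 33 were higher.

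The split between higher and lower followed the scaling. With no scaling 244 passed (66.1%), of which 234 were higher (63.4%) and 10 lower (2.71%), with the percentile taken over all miRNAs 126 and 45, with quantile normalization 101 and 96, and 93 and 102 of 317 in the quantile-normalized values of the authors. The median change of the 186 was 2.31 with no scaling and −0.87 in the scaling used here. All 50 miRNAs that were higher after scaling were also higher unscaled, as they had to be, since leaving out the scaling moves all miRNAs up at day 30 together. Of the 126 that were lower after scaling, 10 were lower unscaled too, 27 were higher and 89 did not pass. With array brightness as a covariate 13 miRNAs passed (3.52%), 12 higher (3.25%) and 1 lower (0.271%), and 6 of them were among the 176. Under it the median change of the 186 was −0.04. Since every day 30 array was brighter than every day 7 array, the covariate can also take up the difference between times. Lost calls and turned signs under it therefore cannot be assigned to brightness or to time.

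The order of miRNAs within an array does not use the brightness of the array as a whole. On ranks among the 186 miRNAs detected on all 6 arrays, 81 passed (43.5%), 36 climbing at day 30 (19.4%) and 45 dropping (24.2%). Of the 27 that were higher after scaling, 20 also climbed and 7 did not pass on ranks. Of the 85 that were lower, 45 also dropped, 39 did not pass and 1 climbed. The top of the order was shared in part: miR-6366 was at ranks 1, 3 and 1 on the day 7 replicates and at 1, 1 and 1 on those of day 30, and miR-3963 at 3, 15 and 5 and at 3, 3 and 3. miR-5109_v19.0 went from ranks 2, 1 and 2 to 18, 13 and 12 (limma on ranks, adjusted p = 0.0264), and its unscaled change was 0.054.

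**Figure D1:**
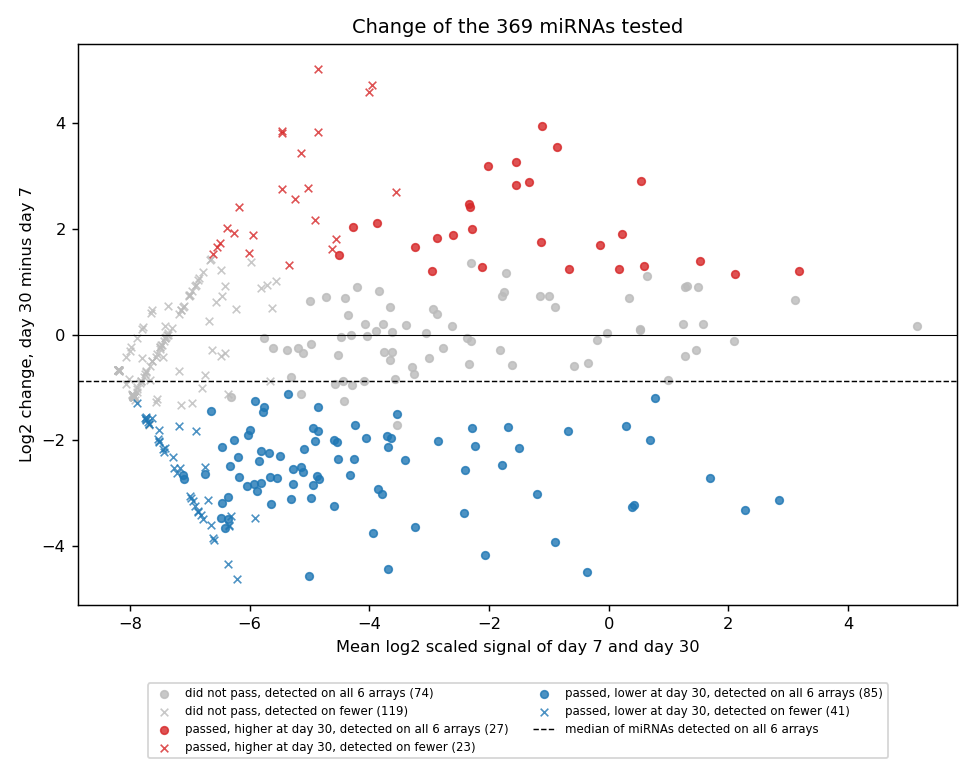
Log2 change from day 7 to day 30 (vertical axis) against the mean log2 scaled signal of both groups (horizontal axis) for the 369 tested miRNAs. Red and blue are those that passed higher (50) and lower (126), circles those detected on all 6 arrays; the dashed line is the median change of −0.87, and every blue symbol lies below it.

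The 3 members of the miR-29 family, repressors of collagen and other matrix messenger RNAs, all rose, and miR-29b-3p rose most. Its scanner signal was 70.0, 7.34 and 30.1 on the day 7 replicates 1, 2 and 3 and 4903, 2220 and 2777 on those of day 30. Its log2 scaled signal was −2.20, −3.95 and −3.11 at day 7 and 1.09, 0.61 and 0.66 at day 30, which gave a change of 3.95 (SE 0.59, limma, Benjamini-Hochberg adjusted p = 0.00037). Day 7 replicate 2, the dimmest array, was lowest at day 7, and every day 30 array lay above every day 7 array. miR-29c-3p went from −2.24, −3.40 and −2.70 to 0.10, 0.12 and 0.13 (change 2.89, SE 0.49, adjusted p = 0.000856) and miR-29a-3p, already bright, from 1.12, 0.55 and 0.84 to 2.21, 2.26 and 2.21 (change 1.39, SE 0.41, adjusted p = 0.0147). All 3 climbed on ranks as well (limma, adjusted p = 0.0219 for miR-29b-3p, 0.0264 for miR-29c-3p and 0.0262 for miR-29a-3p). The opposite arms tested did not pass: miR-29b-1-5p was at −0.87 (adjusted p = 0.156) and miR-29c-5p at 1.43 (adjusted p = 0.0622), the latter detected on no day 7 array and on all 3 of day 30.

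In the miR-15/16 family, known as brakes on cell cycle genes, 4 of 6 tested members rose, with a list median of 1.76. Among all 369 tested 13.6% were higher, and the median was −0.68. miR-15a-5p was at −0.55, −1.40 and −0.79 at day 7 and at 1.99, 1.99 and 2.05 at day 30, a change of 2.92 (SE 0.43, limma, adjusted p = 0.00034), and its rank went from 38, 50 and 42 among the 186 miRNAs detected on all arrays to 8, 7 and 6, where rank 1 is the brightest. miR-195a-5p (change 2.03, adjusted p = 0.00164), miR-322-5p (2.01, adjusted p = 0.00161) and miR-497a-5p (1.52, adjusted p = 0.0143) also rose; miR-195a-5p and miR-497a-5p come from 1 cluster. All 6 share 1 seed. miR-16-5p did not pass (change 1.12, adjusted p = 0.0835), nor did miR-15b-5p (0.08). Among all miRNAs, miR-195a-5p had the largest rank climb, from 162, 184 and 173 to 80, 79 and 79. The next was miR-199b-5p, from 141, 156 and 175 to 70, 73 and 73 (log2 change 2.11, limma, adjusted p = 0.00503).

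**Figure D2:**
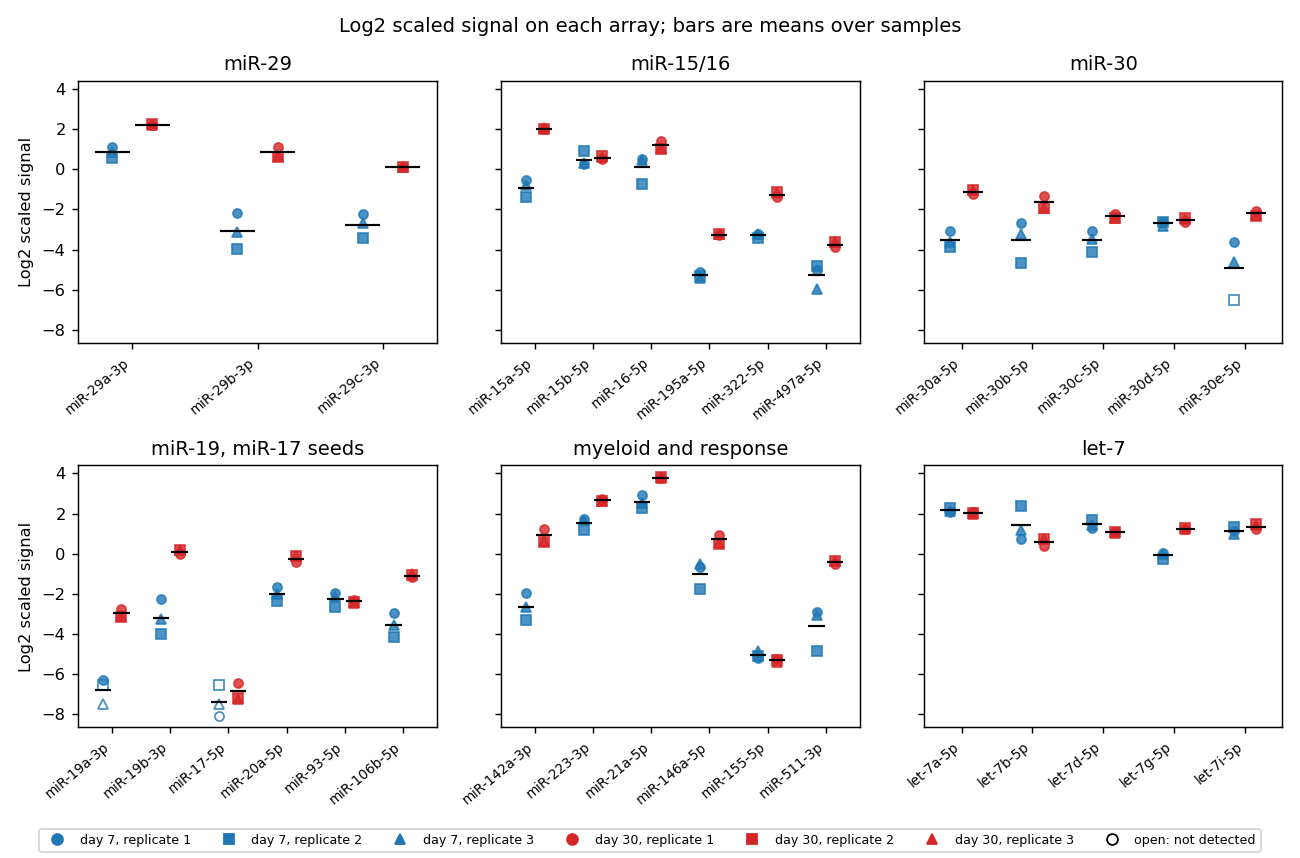
Log2 scaled signal (vertical axis) of members of 6 groups on each of the 6 arrays, with bars at the mean over samples and open symbols where the scanner did not detect the miRNA. The 3 miR-29 members, 5 of the 6 miR-15/16 members (all but miR-15b-5p) and miR-142a-3p, miR-223-3p and miR-21a-5p have all day 30 values above all day 7 values, whereas let-7a-5p and miR-155-5p lie close together at both times.

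Further families held members that rose, beside 13.6% higher over all 369 tested. In the miR-17~92 cluster and its paralogues, which include the proliferation-linked miR-19 seed, 6 of 10 tested rose, among them miR-19b-3p (−2.26, −4.02 and −3.27 to 0.00, 0.16 and 0.19; change 3.27, limma, adjusted p = 0.000856), miR-19a-3p (change 3.84, adjusted p = 0.00034, detected on 1 of 3 day 7 arrays) and miR-106b-5p (change 2.47, adjusted p = 0.00521). The neighbours of miR-106b-5p in the Mcm7 intron did not follow: miR-93-5p stood at −0.12 and miR-25-3p at −0.57, and neither passed. In miR-30, 5 of 7 rose, with miR-30a-5p at −3.09, −3.90 and −3.61 against −1.21, −1.03 and −1.02 (change 2.41, adjusted p = 0.00104) and miR-30e-5p at 2.71 (adjusted p = 0.00678). In miR-26, both members rose, miR-26b-5p by 2.83 (adjusted p = 0.00284) and miR-26a-5p by 1.25 (adjusted p = 0.0369). miR-27a-3p of the miR-232724 clusters changed by 1.90 (adjusted p = 0.00568), while its cluster neighbours miR-23a-3p (0.91, adjusted p = 0.101) and miR-24-3p (0.21, adjusted p = 0.677) did not pass. The other of 6 tested there that rose was miR-24-2-5p, at least 3.52-fold higher and detected on no day 7 array.

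The brightness covariate bore differently on these groups. Under it the median change was 1.58 for miR-15/16, 0.99 for miR-17~92, 0.97 for miR-29 and 0.23 for miR-30, and −0.29 for miR-26. For single members it was 1.85 for miR-15a-5p, 0.97 for miR-29b-3p and 0.91 for miR-19b-3p, while miR-26b-5p (−0.29), miR-106b-5p (−0.28), miR-30e-5p (−1.02) and miR-30b-5p (−1.44) turned sign. None of these single values passed. In the same lists 2 other members did, miR-29c-5p (4.02, limma, adjusted p = 0.035) and miR-30a-3p (4.05, adjusted p = 0.025). Without the covariate miR-29c-5p had not passed.

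The miR-101 family, which targets the histone methyltransferase Ezh2, was, of these 2 times, detected at day 30 only, with all 3 tested members passing. miR-101a-3p was not detected on any of the 3 day 7 arrays and was detected on all 3 day 30 arrays, where its scanner signal was 521, 238 and 312. It was at least 28.6-fold higher at day 30 (fitted change 5.02, limma, adjusted p = 0.000513), against the lowest scaled signal that the day 7 arrays could detect. For miR-101c the bound was 12.6-fold (limma, adjusted p = 0.00034), and its mature sequence is nearly that of miR-101a-3p, so how far their probes share signal was not tested. miR-101b-3p_v20.0 was at least 4.66-fold higher. miR-340-5p, of an unrelated seed, showed the same pattern, at least 12.5-fold higher (adjusted p = 0.000411). With brightness as a covariate, miR-101c (adjusted p = 0.008) and miR-340-5p (adjusted p = 0.031) still passed, with miR-192-5p, miR-30a-3p, miR-503-5p and the falling miR-1897-3p.

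Macrophage and pan-leukocyte miRNAs were higher at day 30 in 6 of 8 tested, with a list median of 1.46. Among all 369 tested 13.6% were higher, and the median was −0.68. Their summed scaled signal was 11.1 to 13.8 on the day 7 arrays and 24.6 to 26.0 on those of day 30. Such a sum weighs bright members most, and miR-21a-5p, the brightest of the list at day 30, is not particular to leukocytes. With cyclic loess 3 of the 8 were higher and 1 lower. With the brightness covariate the list median was 0.25 and none of the 8 passed. miR-142a-3p was at −1.98, −3.29 and −2.65 at day 7 and 1.21, 0.60 and 0.61 at day 30 (change 3.55, SE 0.55, limma, adjusted p = 0.000482). The opposite arm, miR-142a-5p, was at −4.85, −6.54 and −7.50 at day 7, where only replicate 1 detected it, and at −1.46, −1.99 and −1.90 at day 30 (limma, adjusted p = 0.000412). miR-223-3p changed by 1.15 (1.53 ± 0.30 to 2.68 ± 0.08, SD, n = 3 and n = 2; adjusted p = 0.0418); its rank change, from 9, 20 and 11 to 4, 4 and 4, did not pass (adjusted p = 0.151), and with the brightness covariate its change was 0.07. The member that fell was miR-342-3p (−1.19, adjusted p = 0.035). miR-21a-5p, a miRNA abundant in many cells of the injured heart, was among the 2 brightest miRNAs at day 30 by mean rank and changed by 1.21 (2.57 ± 0.32 to 3.78 ± 0.02; adjusted p = 0.0262).

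Alternative activation and inflammatory response miRNAs did not move as 1 block. The shares over all 369 tested were 13.6% higher and 34.1% lower. Of 11 tested alternative activation miRNAs 3 rose and none fell, with miR-511-3p at −2.93, −4.87 and −3.05 at day 7 and −0.51, −0.35 and −0.34 at day 30 (change 3.19, SE 0.58, limma, adjusted p = 0.00104) and miR-378a-3p at −0.87 (adjusted p = 0.0833). Of 7 tested Toll-like receptor and NF-kappaB responders 2 rose and 2 fell, counts too small to set this list apart from all tested. miR-146a-5p changed by 1.70 (−0.99 ± 0.68 to 0.71 ± 0.29, SD, n = 3 and n = 2; adjusted p = 0.0478) and was −0.19 with the brightness covariate, so its sign turned. miR-155-5p did not pass (−5.21, −5.12 and −4.87 to −5.27, −5.30 and −5.41; change −0.25, adjusted p = 0.712), but its rank among the 186 went from 168, 175 and 162 to 125, 125 and 130, which passed on ranks (limma, adjusted p = 0.00533). miR-222-3p (−1.72, adjusted p = 0.0159) and miR-132-3p (−2.31, adjusted p = 0.00212) fell after scaling; unscaled they stood at 1.46 and 0.39, and neither passed.

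**Figure D3:**
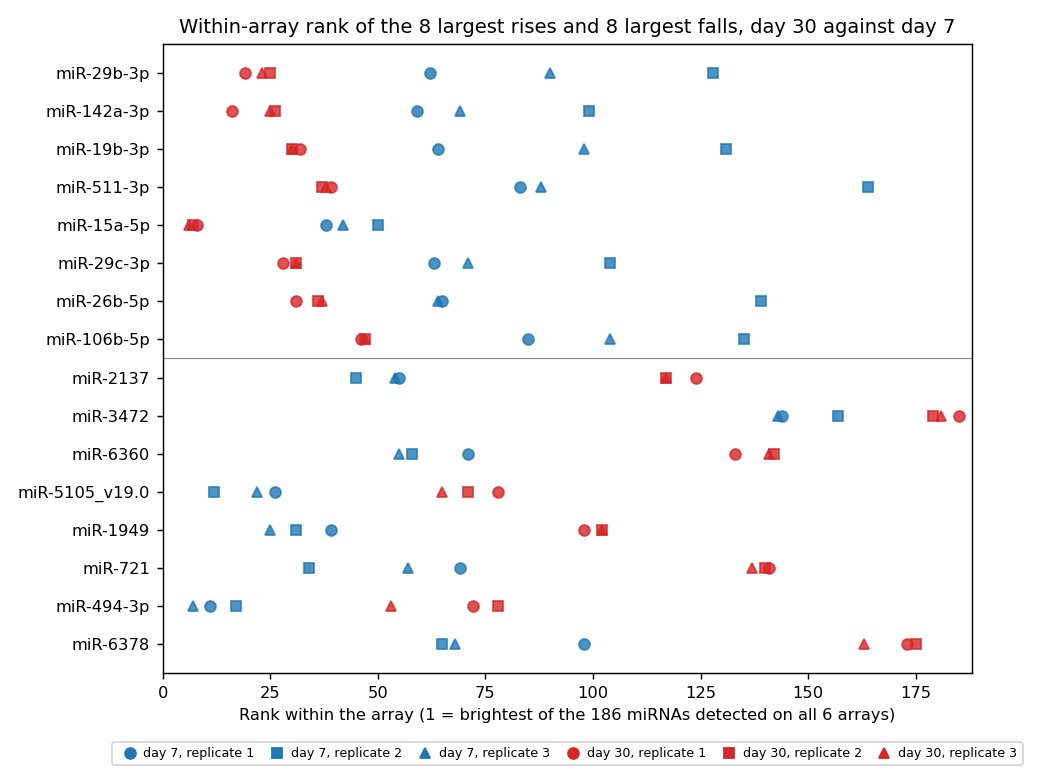
Rank within each array (horizontal axis, 1 is the brightest of the 186 miRNAs detected on all 6 arrays) for the 8 largest rises and the 8 largest falls by log2 change. The day 30 symbols of the 8 rises lie left of their day 7 symbols and those of the 8 falls lie right of them on every array; miR-494-3p goes from ranks 11, 17 and 7 to 72, 78 and 53.

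Among the 126 lower miRNAs 70 had a number over 1000 in their name, as late additions to the registry do, against 1 of the 50 higher and 109 of all 369 tested; this limit was chosen after the values were seen. miR-494-3p was at 1.69, 1.57 and 2.37 at day 7 and −2.88, −3.17 and −1.53 at day 30, which gave −4.49 on the log2 scale (limma, SE 0.54, adjusted p = 0.000205). Its scanner signal also dropped, from 1044, 338 and 1340 to 313, 161 and 608 units, although the day 30 arrays were brighter as a whole. miR-1949 was at 217, 133 and 344 units at day 7 and 138, 81.4 and 90.5 at day 30 (change −4.16, adjusted p = 0.000205), miR-721 fell by 4.43 (adjusted p = 0.00164; 0.72 with the brightness covariate, so its sign turned), and miR-6360 fell by 3.75 (adjusted p = 0.000205). miR-5105_v19.0 went from 402, 439 and 497 units to 257, 228 and 325 (−3.93, adjusted p = 0.000979) and miR-2137 from 108, 55.7 and 83.1 to 63.0, 48.9 and 56.1 (−3.64, adjusted p = 0.00034). miR-494-3p, miR-1949, miR-721, miR-6360, miR-5105_v19.0 and miR-2137 had all day 30 ranks behind its day 7 ranks. On the unscaled signal, however, only miR-6378 among those detected on all 6 arrays passed as lower (34.0, 22.0 and 43.4 to 13.1, 8.19 and 16.2 units; scaled change −4.56).

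Of the 126 miRNAs that were lower, 16 were not detected at day 30. By their bounds the 4 furthest apart were miR-6354, at least 26.2-fold lower, miR-3100-3p, at least 23.9-fold, miR-290a-3p, at least 22.1-fold, and miR-450a-2-3p, at least 20.9-fold, each against the lowest scaled signal that the day 30 arrays themselves detected. These limits are lower than the floor used in fitting, and the fitted log2 changes were smaller, at −3.48, −3.35, −3.23 and −3.15 in the same order. With the brightness covariate miR-3100-3p (0.92) and miR-290a-3p (1.49) turned sign, and none of the 4 passed. On the raw scale miR-6354 was 6.03, 4.93 and 8.86 units at day 7 and 1.92, 1.97 and 1.80 at day 30.

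The Sfmbt2 intronic cluster is a rodent-specific run of miR-297, miR-466, miR-467 and miR-669 genes. Its list was made from these names, not from genome positions, so members from other loci may be included. Beside 34.1% lower and a median of −0.68 over all 369 tested, 8 of its 17 tested members fell and none rose (median −1.16). miR-669p-3p (−2.82, adjusted p = 0.00161, limma), miR-467f (−2.85, adjusted p = 0.00207) and miR-466q (−2.83, adjusted p = 0.00164) were among them. Unscaled, the list's median was 0.44 and these 3 stood at 0.36, 0.33 and 0.35, with the brightness covariate the median was 0.81, and in both none of the 17 fell. In a list of 8 miRNA probes reported to be fragments of longer RNAs, 4 of 7 tested fell (median −1.73; 1.45 unscaled), beside 45.7% lower and a median of −0.87 in the 186 detected on all 6 arrays, as all 7 were. Among them was miR-2861 (−3.02, adjusted p = 0.00114; 0.16 unscaled).

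In let-7, a family that rises as cells differentiate, 1 of 9 rose, let-7g-5p (1.31, limma, adjusted p = 0.0147), none fell, and the median was 0.20. For this and the next lists, the shares over all 369 tested were 13.6% higher and 34.1% lower. let-7a-5p had a mean rank of 8.33 at day 7 and 6.25 at day 30. The miR-99/100 and miR-125 list had 1 of 6 that rose, miR-99a-5p (1.25, adjusted p = 0.0215), and 1 that fell, miR-125a-3p (from −4.65, −6.25 and −4.89 to −7.36, −7.26 and −7.07; adjusted p = 0.0122; 1.02 unscaled). None of 4 miR-181 or 2 miR-10 members passed, with miR-181a-5p at −0.44 (adjusted p = 0.4) and miR-10a-5p at −0.56 (adjusted p = 0.274). miR-181c-5p, detected on no day 7 array and on all 3 of day 30, was at 0.83 (limma, adjusted p = 0.221). With the brightness covariate it was at 3.16 (limma, adjusted p = 0.0449), the 1 of the 4 that passed there. Of 4 hypoxia and p53 miRNAs 1 rose, miR-192-5p, at least 2.94-fold higher and detected on no day 7 array. The hypoxia-induced miR-210-3p (−0.02) and the p53-induced miR-34a-5p (0.10) did not pass, and miR-34a-5p was at 0.75, 0.32 and 0.33 at day 7 and 0.44, 0.68 and 0.71 at day 30.

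**Figure D4:**
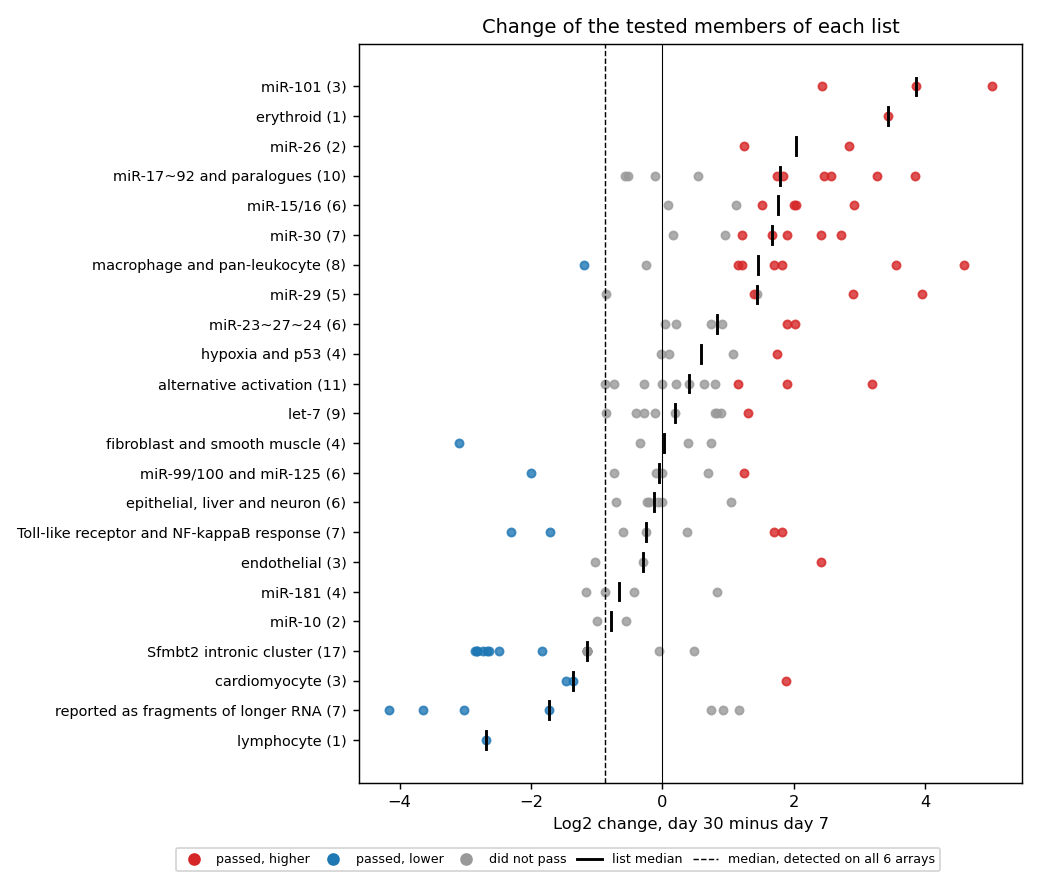
Log2 change (horizontal axis) of the tested members of each of 23 lists, with black ticks at list medians and the dashed line at the median of −0.87 of the 186 miRNAs detected on all 6 arrays. Members of miR-101, miR-26, miR-15/16 and miR-30 lie to the right of 0 and those of the Sfmbt2 list, made by name, mostly to the left.

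Markers of other cells did not move in 1 direction, and not all were dim. The counts below stand beside 13.6% higher and 34.1% lower over all 369 tested. Of 6 cardiomyocyte miRNAs on the array 3 were tested: miR-1a-3p was higher (1.88, limma, adjusted p = 0.039, detected on 1 of 3 day 7 arrays) and miR-133a-3p (−1.46, adjusted p = 0.0143) and miR-133b-3p (−1.36, adjusted p = 0.0237) lower, though both miR-133 members stood at 1.71 and 1.82 unscaled. Their summed scaled signal ranged from 0.0753 to 0.12 on the day 7 arrays and from 0.0526 to 0.0773 on those of day 30. Of 3 tested endothelial miRNAs 1 rose, miR-30a-5p, which is also in the miR-30 list; miR-126a-3p was at −0.30 (adjusted p = 0.716) and at ranks 53, 56 and 53 at day 7 and 58, 58 and 59 at day 30, and miR-126a-5p was at −1.03 (adjusted p = 0.149). The summed scaled signal of the endothelial list lay between 0.365 and 0.463 on the day 7 arrays and between 0.697 and 0.751 on those of day 30. The rise of this sum came from miR-30a-5p, the only member of the list with a positive change. Of 4 tested fibroblast and smooth muscle miRNAs (list median 0.02) 1 fell, miR-214-3p (−3.09, limma, adjusted p = 0.00175; 0.087 unscaled), while miR-143-3p (0.74), miR-199a-3p (0.39) and miR-199a-5p (−0.34) did not pass, and their summed signal was 0.171 to 0.423 and 0.195 to 0.212. The lymphocyte miR-150-5p fell by 2.69 (adjusted p = 0.0033; 0.49 unscaled), and the erythroid miR-451a rose by 3.43 (adjusted p = 0.000513), from a scaled signal of 0.00561 to 0.0109 up to 0.0815 to 0.106. None of 6 tested epithelial, liver and neuron miRNAs passed in the scaling used here, with the highest floor or with the brightness covariate. All 6 passed as higher with no scaling, quantile normalization, cyclic loess and the percentile over all miRNAs. In the authors' quantile-normalized values all 4 present did, and with scaling to the median 1 of 6 did. Each of the 6 was detected on no day 7 array and on all 3 of day 30. Whether other cells or free RNA had a part in these values was not tested.

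The ratio of the arms of a hairpin was tested in 12 hairpins with both arms detected on all 6 arrays, and 4 passed (33.3%), each with a larger 5p share at day 30. The 5p minus 3p difference of miR-139 went from −0.14, 0.48 and −0.93 to 1.94, 1.76 and 1.69 (change 2.03, SE 0.49, limma, adjusted p = 0.00214), and that of miR-324 from 0.86, −0.37 and −0.08 to 2.13, 2.19 and 2.24 (change 2.04, SE 0.51, adjusted p = 0.00214). miR-140 (1.72, adjusted p = 0.00393) and miR-532 (1.28, adjusted p = 0.0313) passed as well. Dividing an array by 1 value cancels in this difference. An effect that differs with base composition, or a background added to dim signals, would not. Both miR-139 arms were dim at day 7, at 6.86, 6.35 and 4.16 scanner units (5p) and 7.56, 4.57 and 7.92 (3p). At day 30 they were at 45.8, 35.7 and 41.3 (5p) and 12.0, 10.6 and 12.8 (3p). The 3p arm holds more G and C than the 5p arm in miR-139 (68.2 against 54.5%) and miR-324 (70.0 against 60.9%). What part base composition or dim signals had was not tested. With brightness as a covariate 2 hairpins passed, and miR-324 was at −0.01.

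Members of a seed family did not always move together. The miR-29 seed (AGCACCA in capitals above) had 3 of 3 tested members higher and the miR-15/16 seed 4 of 6. The let-7 seed had 1 of 9, and the seeds of miR-25 and miR-92 and of miR-181 had 0 of 4 each. As 13.6% of all 369 tested were higher and 34.1% lower, counts of 1 of 9 or 0 of 4 say little about a seed. The shared seed of miR-721 and miR-301a-3p had 1 of 4 lower (miR-721, −4.43; 0.72 with the brightness covariate) and 1 higher (miR-301a-3p, 2.76, limma, adjusted p = 0.00153). Of 186 miRNAs detected on all arrays 149 had a sequence (80.1%). The median change was 1.21 in the 17 under 40% G and C, 0.46 in the 40 from 40 to 50%, −0.73 in the 45 from 50 to 60% and −2.13 in the 47 of 60% or over. Across miRNAs, change correlated with G and C content (Pearson's r = −0.53, Spearman's rho = −0.55). The same content correlated with the difference between the day 7 replicates 1 and 2, the brightest and dimmest of that group (r = −0.38, rho = −0.44). A comparison of the sets that passed is void, since only 61 of 85 lower miRNAs (71.8%) have a sequence. miRNAs are not independent replicates, and what part composition has in the changes was not tested.

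**Figure D5:**
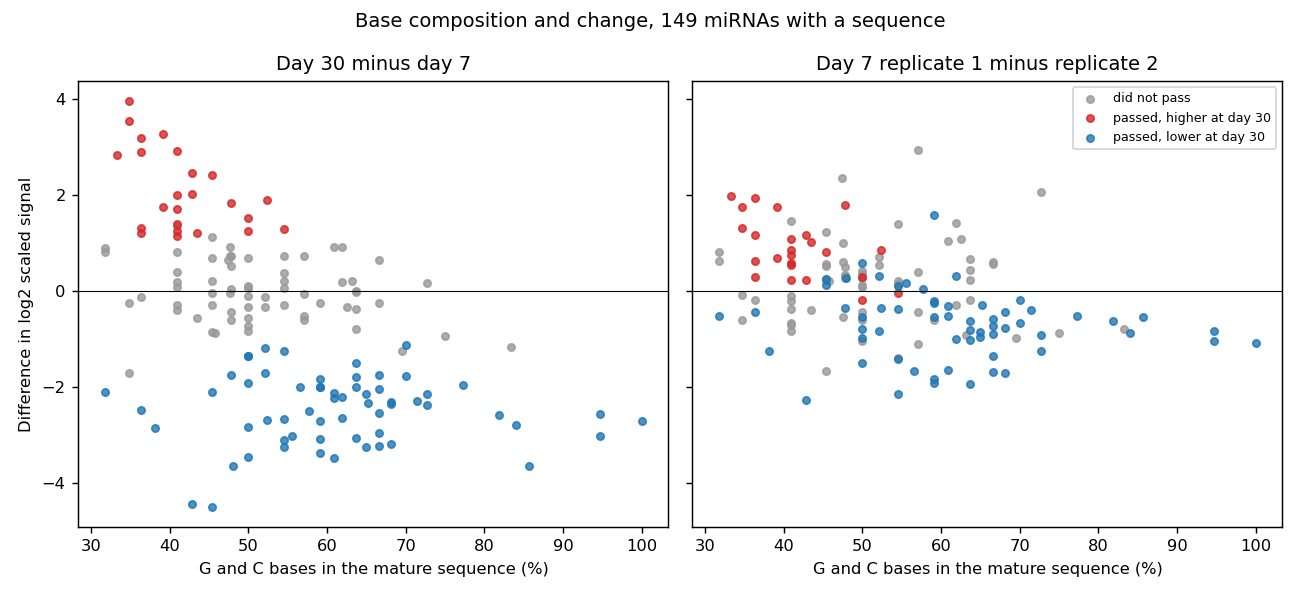
Left, log2 change from day 7 to day 30, and right, the difference between day 7 replicates 1 and 2, each against the share of G and C in the mature sequence (horizontal axis, percent), for the 149 miRNAs with a sequence. Both fall to the right, with medians on the left from 1.21 under 40% to −2.13 at 60% and over.

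Some of the same contrast was present among the day 7 arrays themselves. Across the 186 miRNAs, day 7 replicate 1 minus replicate 2 and the day 30 mean minus day 7 replicate 3, which share no array, had r = 0.68 and rho = 0.69, and 97 of the 112 that passed had the same sign in both. Within-array ranks of the 3 day 30 arrays correlated at rho 0.993 to 0.995 with each other. Those of day 7 replicate 1 correlated with day 30 at 0.857 to 0.873, those of replicate 3 at 0.778 to 0.796 and those of the dimmest, replicate 2, at 0.611 to 0.644.

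The levels at the other times are given as values only, with no test. miR-30a-5p was at −1.53 ± 0.63 at day 0 (SD, n = 2), −4.35 ± 0.04 at day 3 (n = 3), −3.53 ± 0.41 at day 7 (n = 3) and −1.12 ± 0.13 at day 30 (n = 2). miR-511-3p was at −1.98 ± 0.35, −5.40 ± 0.48, −3.62 ± 1.09 and −0.43 ± 0.11 in the same order. miR-29b-3p was at −2.71 ± 0.83, −1.35 ± 0.61, −3.09 ± 0.87 and 0.86 ± 0.32, highest at day 30. miR-494-3p was at 1.55 ± 1.27, −0.30 ± 0.28, 1.88 ± 0.43 and −2.62 ± 0.37. The day 0 arrays were the dimmest (75th percentile 55.7 to 163 units) and those of day 3 the next brightest to day 30 (805 to 1607).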

How the data were processed

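Mouse miRNA arrays (Agilent, 1 colour) of 11 samples were used. The authors deposited one table per array of linear intensity values, the total gene signal that Agilent Feature Extraction writes per miRNA, per the file headers and the submitters' processing notes, with its error and a detection flag. The authors also deposited a table of log2 values for 317 miRNAs, quantile normalized per the file headers; it was used only as an alternative. The depth of an array has no read count, so the number of arrays limits the precision.

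From the intensities, controls were left out, and 1247 miRNAs remained. Each array was divided by a 75th percentile, that of the 126 miRNAs which all 11 arrays detected. The scaled values were floored at 0.00271 and log2 was taken. The 369 miRNAs detected on at least 2 arrays were tested in 1 limma 3.58.1 model (R 4.3.3) of all 4 groups, 10 samples and 6 residual degrees of freedom, with Benjamini-Hochberg adjustment at 0.05, the script having been tested on simulated data. Arm differences were tested the same way. Named miRNAs were the 8 largest changes each way among those passing on all 6 arrays, the 4 largest bounds each way, up to 3 passing members of each of 23 lists (or 1 bright member), the 5 brightest, the 4 largest rank moves each way, 4 hairpins and 5 macrophage miRNAs; miRNAs named beside these were chosen after their values were seen. The members and lists were chosen with earlier results of these data known. A sequence was found for 296 of the 369. Alternatives changed the scaling, floor, filter, blocks, weights, covariates and samples.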

Additional observations from a re-analysis of the deposited data

How the results depend on the processing

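The counts of miRNAs that passed (176, with 50 higher and 126 lower) depended on scaling. They were 126 higher and 45 lower with the 75th percentile over all miRNAs, 234 and 10 with no scaling, 101 higher with quantile normalization, 108 with cyclic loess and 93 in the authors' table. Within-array ranks gave 81 (45 lower), the highest floor 89 (49 lower) and only miRNAs detected on all 6 arrays 31 higher. Brightness as a covariate gave 13 (12 higher, 1 lower) and 2 hairpins, and array quality weights 303 (101 higher, 202 lower; the weights did not converge fully). Leaving out 1 replicate gave 110 to 208 (27 to 60 higher, 83 to 148 lower) and 3 to 5 hairpins. Detected numbers differed by −44.3 over the highest floor. A slide block gave 207, and leaving out the arrays under 200 scanner units, chosen after seeing the data, 213. Same-numbered arrays had r = 0.42, 0.31 and −0.05, the first 2 of which shared a slide. Of differing number but on the same slide, day 7 replicate 3 with day 30 replicate 1 had 0.31. Day 7 replicate 2 with day 30 replicate 3 had 0.31 too. All pairs across slides were negative, from −0.53 to −0.05. Whether the numbers pair the samples thus cannot be told apart from the slide. The replicate block gave 213.

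Signs of single miRNAs turned as follows, and the cause was not tested. With the percentile over all miRNAs, miR-133a-3p was 0.16, miR-133b-3p 0.26 and miR-155-5p 1.37. With no scaling, miR-132-3p was 0.39, miR-222-3p 1.46, miR-125a-3p 1.02, miR-181a-5p 2.74, miR-10a-5p 2.62, miR-133a-3p 1.71, miR-133b-3p 1.82, miR-214-3p 0.087, miR-150-5p 0.49, miR-467f 0.33, miR-466q 0.35, miR-669p-3p 0.36, miR-2861 0.16, miR-155-5p 2.93, let-7a-5p 3.06 and miR-5109_v19.0 0.054. On ranks, in percent of the miRNAs ranked, miR-133a-3p climbed 6.90, miR-133b-3p 0.81 and miR-155-5p 22.6. With the brightness covariate, miR-26b-5p was −0.29, miR-106b-5p −0.28, miR-721 0.72, miR-3100-3p 0.92, miR-290a-3p 1.49, miR-146b-5p −0.80, miR-30e-5p −1.02, miR-30b-5p −1.44, miR-26a-5p −0.30, miR-146a-5p −0.19 and the miR-324 arms −0.011.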
